A study of Mus musculus with 3 samples.

Results

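ET1-like external tufted cells are 1 of the projection neuron types of the olfactory bulb (OB), and they were taken here as the nuclei that the authors placed in subcluster 4 of the projection neuron clusters. Subcluster 4 held 703 of 7504 subclustered nuclei, out of 31703 nuclei retained from 3 mice. The samples analysed here form 1 group, adult male C57Bl/6 mice, with no second condition among them. Every mouse had received retroAAV-CAG-H2B-GFP in the piriform cortex (PCx) and in the anterior olfactory nucleus (AON), so that neurons with axons in either area could carry a green fluorescent nucleus. The ubiquitous CAG promoter drives the label, which therefore marks uptake of the virus and not a cell type. Of the 31703 sorted and retained nuclei only 7504 were subclustered as putative projection neurons. The paper labels 1 of these subclusters as putative periglomerular cells. Nuclei positive for GFP and the DNA dye DRAQ5 were sorted and counted in droplets, with 1 library per mouse.

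External tufted cells lie in the glomerular layer of the OB, directly below the incoming axons of the olfactory sensory neurons. They are glutamatergic, fire rhythmic bursts, drive inhibitory periglomerular cells within their glomerulus, and send axons mainly to anterior olfactory areas. Mitral cells lie deeper, and middle tufted cells lie between both. All of these cells express vesicular glutamate transporters and T-box factors such as Eomes.

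ET1-like nuclei numbered 147, 442 and 114 in mice 1, 2 and 3, and their summed libraries held 2228807, 6076450 and 2058138 unique molecular identifiers (UMIs), each of which counts 1 RNA molecule that was captured. The median nucleus had 13888, 12430.5 and 17333.5 UMIs from 3696, 3579.5 and 4039.5 genes. The nuclei were compared with subclusters 0, 1, 3, 5, 6 and 7, which carried the markers of T1, M2, ET4, M1, ET2 and M3 cells and are called T1-like to M3-like below. Summing the UMIs of each type within each mouse gave 21 libraries, 3 of them ET1-like and 18 of other types. The 21 libraries come from 3 animals, and the M1-like library of mouse 1, which held only 14 nuclei, is named where it sets an overlap or the end of a range. Of 703 ET1-like barcodes, 5 also occurred in another mouse, and 0 were ET1-like in more than 1 mouse. Nuclei of the wider series numbered 5845, 21105 and 4753 in mice 1, 2 and 3.

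ET1-like nuclei made up 9.43% of subclustered nuclei in mouse 1 (95% exact interval 8.02 to 10.99, counting error only), 10.1% in mouse 2 (9.26 to 11.1) and 7.19% in mouse 3 (5.97 to 8.57). The mean was 8.92% ± 1.54 (SD, n = 3). The interval of mouse 3 lay below that of mouse 2 and overlapped that of mouse 1. The subclustered nuclei include the subcluster labelled as putative periglomerular cells. Among nuclei of the 7 types compared here, ET1-like nuclei made up 10.3%, 12.8% and 7.87% in mice 1, 2 and 3. The order of the mice depended on the denominator, since ET1-like nuclei made up 2.51%, 2.09% and 2.40% of all retained nuclei in mice 1, 2 and 3, lowest in mouse 2. Virus uptake and sorting can set such shares, and their part was not tested. Of the 703 nuclei, 678 came from 1 cluster of the wider series, of which they made up 33.6%, and 25 from a second one, 23 of these in mouse 2.

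The label ET1 was checked against 7 marker genes, and all 7 were carried by the subcluster. The study had chosen these markers on the same nuclei, so that their presence is not independent evidence for the name. A marker counted as carried where its level reached 50% of that in the highest type. Coch, Chst9, Rxfp1, Rorb, Wnt5b and Tpbgl were also among its 10 leading genes by fold. Markers of M1, M2, M3, ET2 and ET4 cells were carried in 0 cases, while 3 of 9 T1 markers were carried too. ET4-like nuclei carried 2 of the 7 ET1 markers. Across the 14696 genes tested, the mean profile of ET1-like nuclei correlated with those of T1-like (r = 0.960), M2-like (0.937), ET4-like (0.933), M3-like (0.917), M1-like (0.900) and ET2-like nuclei (0.886). These values describe the profiles across genes, which are not independent, and nuclei of a type share library and depth.

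Coch and Wnt5b, the genes after which the type can be recognised, differ in the sequence just upstream of their annotated starts. The promoter sequences (250 bases, 5′ to 3′ on the gene's strand, RefSeq annotation of build GRCm38.p6) are shown for the start of Coch at chr12:51593091-51593340 on the plus strand, for the first and second starts of Wnt5b at chr6:119544348-119544597 and chr6:119467212-119467461 on the minus strand, and for the second start of Rorb at chr19:19001118-19001367 on the minus strand. Capitals mark matches to motifs of factor families that the study or the marker lists name for these cells.
Coch promoter 1: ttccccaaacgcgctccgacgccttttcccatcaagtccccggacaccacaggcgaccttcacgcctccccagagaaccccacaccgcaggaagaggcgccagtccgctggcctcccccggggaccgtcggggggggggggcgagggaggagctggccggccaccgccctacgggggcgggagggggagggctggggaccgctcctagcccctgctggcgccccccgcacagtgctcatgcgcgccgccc
Wnt5b promoter 1: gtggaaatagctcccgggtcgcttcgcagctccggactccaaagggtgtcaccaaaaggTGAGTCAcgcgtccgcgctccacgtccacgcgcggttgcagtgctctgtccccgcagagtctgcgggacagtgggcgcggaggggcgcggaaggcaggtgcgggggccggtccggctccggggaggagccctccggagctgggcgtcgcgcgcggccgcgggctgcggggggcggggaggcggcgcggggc
Wnt5b promoter 2: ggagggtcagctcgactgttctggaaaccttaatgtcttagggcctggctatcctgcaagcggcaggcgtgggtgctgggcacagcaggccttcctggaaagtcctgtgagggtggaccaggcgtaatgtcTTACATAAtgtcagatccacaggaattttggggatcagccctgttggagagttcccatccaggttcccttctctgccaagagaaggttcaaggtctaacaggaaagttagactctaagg
Rorb promoter 2: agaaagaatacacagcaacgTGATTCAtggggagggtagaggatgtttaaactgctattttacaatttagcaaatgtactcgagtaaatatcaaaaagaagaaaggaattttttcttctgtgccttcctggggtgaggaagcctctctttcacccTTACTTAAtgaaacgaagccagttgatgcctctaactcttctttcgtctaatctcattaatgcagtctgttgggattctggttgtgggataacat

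The Coch promoter had a GC content of 74.8% and held no match. Wnt5b promoter 1, at 75.2% GC, held TGAGTCA 191 bases before the start, a match to the AP-1 motif TGANTCA that Fos and Jun proteins bind. Wnt5b promoter 2, at 53.2% GC, held TTACATAA 119 bases before the start, a match to TTACNTAA, the motif of PAR bZIP factors such as Hlf. Rorb promoter 2, at 39.2% GC, held TGATTCA 230 bases before the start and TTACTTAA further downstream. The remaining starts of these genes, the third of Wnt5b (55.6% GC) and the first of Rorb (66% GC), held no match and are not shown. The median over 32851 promoters was 52.4% GC, with the 10th and 90th percentiles at 38.8% and 69.2%. The libraries were primed at the 3′ end of transcripts and do not tell which start was used. A match to these letters is a description of the window and not evidence of binding.

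Promoters could be matched for 78 of 107 genes that were called higher in ET1-like nuclei by the rule given below, at 10 CPM or more and above all other libraries, and these genes had 109 promoters. Both strands were searched. TGANTCA occurred in 7 of the 109 (6.42%) and in 6.75% of all promoters. TTACNTAA occurred in 3 (2.75%, against 2.06%), and TAGGTCA, the motif of ROR receptors such as Rorb, in 3 (2.75%, against 2.23%), namely those of Frmpd4, Gm13629 and Slc18b1. ATCGAT, which CUX factors bind, occurred in 1 (0.917%, against 0.728%), a promoter of Cux2. AGGTGTGA, the T-box motif, occurred in 2 (1.83%, against 1.12%), those of Pparg and Tnni3. TCAAGGTCA, the motif of ERR receptors, occurred in 0, against 0.387%. No motif was thus much more frequent before these genes than before all genes, and the counts are small.

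Levels are given as CPM, the UMI count of a gene scaled to a library total of 1000000, and differences as log2 fold changes with their standard error from edgeR. A gene was called where its log2 fold change exceeded 1 in size and its adjusted p from edgeR was below 0.05. The authors had formed the subclusters from the same counts, so that every call between types describes how the cluster was separated and is no test of it. Against the mean of the other 6 types, 760 of 14696 genes (5.17%) were called higher in ET1-like nuclei and 505 (3.44%) lower. Summing the other 6 types into 1 library per mouse gave 351 higher and 722 lower genes in place of 760 and 505. Lower genes thus outnumbered higher ones under that setting. Leaving out mouse 2, which held most nuclei, gave 328 lower genes in place of 505.

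Coch encodes cochlin, a secreted matrix protein best known from the inner ear. Its level was 179, 193 and 176 CPM in ET1-like nuclei of mice 1, 2 and 3, against 47.5, 64.9 and 71.3 CPM in ET4-like and a mean of 3.44 CPM in T1-like nuclei. All 3 ET1-like libraries lay above all 18 others, and ET4-like nuclei came next. The log2 fold change was 4.63 ± 0.18 against the 6 types, 5.67 against T1-like and 1.75 against ET4-like nuclei.

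Wnt5b encodes a secreted Wnt ligand. It stood at 207, 166 and 204 CPM in ET1-like nuclei, against means of 85.4 CPM in ET4-like, 46.9 CPM in M3-like and 21.7 CPM in T1-like nuclei. The highest of the other libraries reached 96.5 CPM, so that the groups did not overlap. The log2 fold change was 3.05 ± 0.09. Coch and Wnt5b therefore shared the order in which ET1-like nuclei were highest and ET4-like nuclei second.

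Rxfp1, the receptor of the peptide hormone relaxin, was ordered in another way. It stood at 256, 173 and 174 CPM in ET1-like nuclei, at 81.6, 53.5 and 45.4 CPM in T1-like nuclei, and at 9.17, 2.74 and 39.1 CPM in ET4-like nuclei. Its log2 fold change was 4.71 ± 0.29 against the 6 types (2.91 with these summed into 1 library per mouse), 1.70 against T1-like and 4.22 against ET4-like nuclei. By Rxfp1, ET1-like nuclei were nearer to T1-like than to ET4-like nuclei, the reverse of Coch. The other relaxin receptors and the relaxin family ligands were at or near 0, with 1 UMI of Rxfp2, 2 of Rxfp3, 0 of Rxfp4, 2 of Insl5, 1 of Rln3 and 0 of Rln1 and Insl3 in all ET1-like nuclei.

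Rorb, an orphan nuclear receptor of the ROR family, stood at 289.8, 217 and 235 CPM. The M1-like library of 14 nuclei from mouse 1 had 297 CPM of Rorb, whereas the M1-like libraries of the other mice had 6.59 and 4.78 CPM. Rorb therefore overlapped with other types only through that library, and the log2 fold change over all libraries was 2.76 ± 0.35. Chst9, a sulfotransferase that modifies sugar chains, stood at 249, 183 and 241 CPM, with a maximum of 63.6 CPM elsewhere and a log2 fold change of 3.72 ± 0.15.

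The remaining markers were shared with ET4-like nuclei. Tpbgl, a leucine-rich repeat membrane protein, stood at 84.8, 46.7 and 49.1 CPM in ET1-like and at 50.6, 24.6 and 34.2 CPM in ET4-like nuclei. Clcf1, a cytokine of the interleukin-6 family, stood at 21.98, 11.2 and 17.0 CPM, against 15.9, 7.02 and 12.6 CPM in ET4-like nuclei. For both genes the ET1-like and ET4-like libraries overlapped, and their differences of 0.90 and 0.69 on the log2 scale were not called, although each ET1-like library was above the ET4-like library of the same mouse. Against the 6 types they were called, with 4.74 ± 0.27 for Tpbgl and 4.52 ± 0.39 for Clcf1. Clcf1 was at 2.63 with the other types summed.

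**Figure D1:**
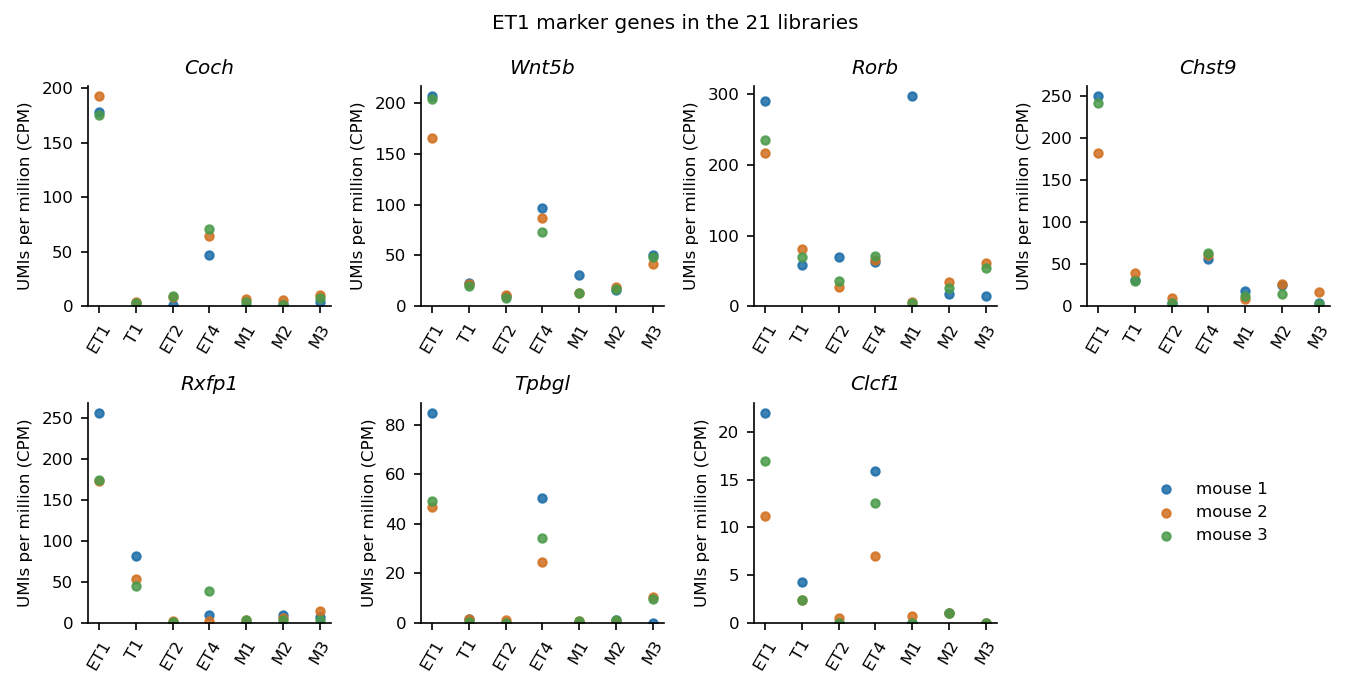
Level of the 7 ET1 marker genes in CPM (vertical axes) in the 7 types (horizontal axes), with 1 point per mouse. ET1-like libraries lie highest for Coch (176 to 193 CPM), Wnt5b, Chst9 and Rxfp1, the M1-like library of mouse 1 reaches 297 CPM of Rorb, and ET4-like libraries overlap with ET1-like ones for Tpbgl and Clcf1.

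The gene bodies of the markers lie at chr12:51593341-51605771 on the plus strand (Coch), chr6:119432531-119544347 on the minus strand (Wnt5b), chr3:79641611-79737880 on the minus strand (Rxfp1) and chr19:18930605-19111196 on the minus strand (Rorb) in GRCm38. Tpbgl lies at chr7:99624082-99627103 on the minus strand and Clcf1 at chr19:4214238-4223490 on the plus strand. Rxfp1 and Clcf1 overlap other annotated genes on the same strand, Gm26984 and AC109138.7, and reads from the overlap are uncertain.

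Coch and Wnt5b were not detected together in every ET1-like nucleus. Nuclei were thinned to 5000 UMIs each, which left out 12 of 703. Coch then had a UMI in 53.2%, 58.8% and 55.0% of ET1-like nuclei of mice 1, 2 and 3, and Wnt5b in 57.4%, 48.1% and 60.4%. Both genes were seen in 34.0%, 28.5% and 29.7%, or 206 of 691 nuclei (29.8%, exact interval 26.4 to 33.4), and neither in 20.8%. This interval pools the nuclei of 3 mice, 439 of them from mouse 2, and covers counting error only. The product of the single shares was 30.6%, 28.2% and 33.2%, so that joint detection was close to the level of 2 genes detected independently of each other. The ratio was 1.11, 1.01 and 0.90 in mice 1, 2 and 3, and 1.01 over the pooled nuclei. Detection of one gene thus did not split the nuclei into Coch and Wnt5b groups at this depth.

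Without thinning, both genes were detected in 413 of 703 nuclei (58.7%), Coch in 79.4% and Wnt5b in 72.4%. At 5000 UMIs, both were detected in 6.78% of ET4-like nuclei and in 0.195% of T1-like nuclei. Nuclei of the largest inhibitory cluster (6636 after thinning, median 8040.5 UMIs before it) were taken for comparison. They had a UMI of Coch in 2.17%, of Wnt5b in 3.93% and of both in 0.121%, and whether they express these genes was not tested. The shares in ET1-like nuclei were far above these, and that of Coch in T1-like nuclei, 1.31%, was below. Both genes are markers chosen on these same nuclei, so that the gap is not independent evidence. In ET1-like nuclei with a Wnt5b UMI, the Coch level was 169.9, 193 and 168 CPM, against 219, 192 and 216 CPM in those without. Nuclei with a Wnt5b UMI were deeper, with medians of 14606.5, 12964 and 18248.5 UMIs against 11470, 11577 and 12721.5, since they were split here without thinning, and the part of depth was not tested.

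Of the 7 markers, the median thinned ET1-like nucleus had a UMI of 3. None was seen in 3.04% of ET1-like nuclei, 32.9% of ET4-like, 54.1% of T1-like and 89.9% of the inhibitory nuclei. At least 4 were seen in 30.5% of ET1-like nuclei.

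Of the 760 genes called higher, 116 had all 3 ET1-like libraries above all 18 others, and of the 505 called lower, 43 had all 3 below. Over all genes tested, called or not, 154 (1.05%) lay above and 87 (0.592%) below. Leaving out the M1-like library of 14 nuclei, a choice made after seeing the data, gave 123 and 50 called genes in place of 116 and 43, and Rorb then joined the separated genes.

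Apart from Rxfp1, Coch and Chst9, 9 genes led the separated genes by fold change. Rbfox1, a neuronal splicing regulator, stood at 3948, 4423 and 4086 CPM in ET1-like nuclei and between 67.7 and 1276 CPM elsewhere, with a log2 fold change of 3.95 ± 0.26. It is a long gene that overlaps 1700123O21Rik on the same strand, and nuclear libraries hold many intronic reads of such genes. Ano1, a calcium-activated chloride channel, stood at 53.4, 31.8 and 36.4 CPM with a maximum of 12.6 CPM elsewhere and a log2 fold change of 4.13 ± 0.23. ET4-like nuclei came next for Ano1, with a mean of 9.34 CPM.

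Il15, a cytokine, stood at 13.9, 12.2 and 15.1 CPM, against at most 5.58 CPM elsewhere (4.92 ± 0.43 on the log2 scale). Ly75, an endocytic receptor of dendritic cells, stood at 35.9, 28.0 and 38.9 CPM, against at most 14.5 CPM (3.49 ± 0.22). Enpp3, an ectonucleotidase, stood at 31.4, 13.2 and 16.03 CPM, against at most 8.99 CPM (3.68 ± 0.33), with mouse 1 well above the others. Summed microglial markers were at 13.8 to 18.9 CPM in ET1-like and 12.7 to 39.3 CPM in the other libraries. Of 2 tested, 0 were called, beside 5.17% of all genes called higher and 3.44% lower, so that the count alone says little.

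Gm49116, AC124532.2 and 6330576A10Rik, also among the leading genes, are long non-coding RNAs. Gm49116 stood at 205, 181 and 313 CPM, with a mean of 136 CPM in T1-like nuclei and a maximum of 155.9 CPM elsewhere, and a log2 fold change of 5.33 ± 0.25 against the mean of the types. AC124532.2 stood at 13.9, 8.39 and 10.7 CPM, against at most 1.20 CPM (6.23 ± 0.53), and 6330576A10Rik at 12.6, 11.7 and 21.9 CPM, against at most 10.0 CPM (3.84 ± 0.36). AC124532.2 was the most exclusive of them, whereas Gm49116 was shared with T1-like nuclei and overlaps Gm9630 on its strand. With the other 6 types summed into 1 library per mouse, where T1-like nuclei weigh most, Gm49116 stood at 2.10 and 6330576A10Rik at 1.82 on the log2 scale, and the 12 leading genes at 1.82 to 5.36 in place of 3.49 to 6.23. Nup62cl, a nucleoporin-like gene, stood at 15.3, 15.6 and 16.5 CPM, against at most 9.78 CPM (5.41 ± 0.38).

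Among the 8 leading genes on the lower side, Cntn5, Pcdh1, Rgma and Ajap1 encode adhesion or guidance proteins. Cntn5, a contactin that shapes neurite contacts, stood at 114, 121 and 113 CPM in ET1-like nuclei and between 337 and 3331 CPM in all other libraries (−3.54 ± 0.16). Pcdh1, a protocadherin, stood at 0.897, 2.47 and 1.46 CPM against 5.98 to 61.2 CPM (−3.43 ± 0.29). Rgma, a repulsive guidance molecule, was counted 7 times in all ET1-like nuclei, all in mouse 2, at 1.15 CPM against 1.71 to 45.4 CPM elsewhere (−3.76 ± 0.40). Without mouse 2 both remaining ET1-like libraries were at 0, and the fitted value of −8.13 is then no measure of size. Cntn5 and Rgma overlap small annotated genes on the same strand.

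Ajap1, a protein of adherens junctions, stood at 14.4, 15.5 and 16.5 CPM against 64.7 to 281 CPM (−2.96 ± 0.14). Hpse, the enzyme that cuts heparan sulfate chains, stood at 4.49, 4.44 and 0.486 CPM against 8.94 to 48.2 CPM (−2.63 ± 0.24), and Crtac1, a secreted matrix protein, at 17.5, 15.6 and 7.77 CPM against 45.4 to 235 CPM (−2.56 ± 0.14), with the M1-like library of 14 nuclei at the upper end. For each of these genes every ET1-like library lay below every other one. Receptor genes on the lower side were Gabrb1, the β1 subunit of GABA-A receptors, with 69.1, 83.4 and 73.4 CPM against 102 to 5752 CPM (−3.15 ± 0.22), and Neto2, an auxiliary subunit of kainate receptors, with 15.3, 23.2 and 21.9 CPM against 69.0 to 476 CPM (−2.93 ± 0.14). The level of Gabrb1 in the other types spread more widely than that of any other gene of this group, so that the smallest gap to ET1-like nuclei was narrow. T1-like nuclei were nearest, with a mean of 117 CPM of Gabrb1, and the difference of −0.67 from them was not called.

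**Figure D2:**
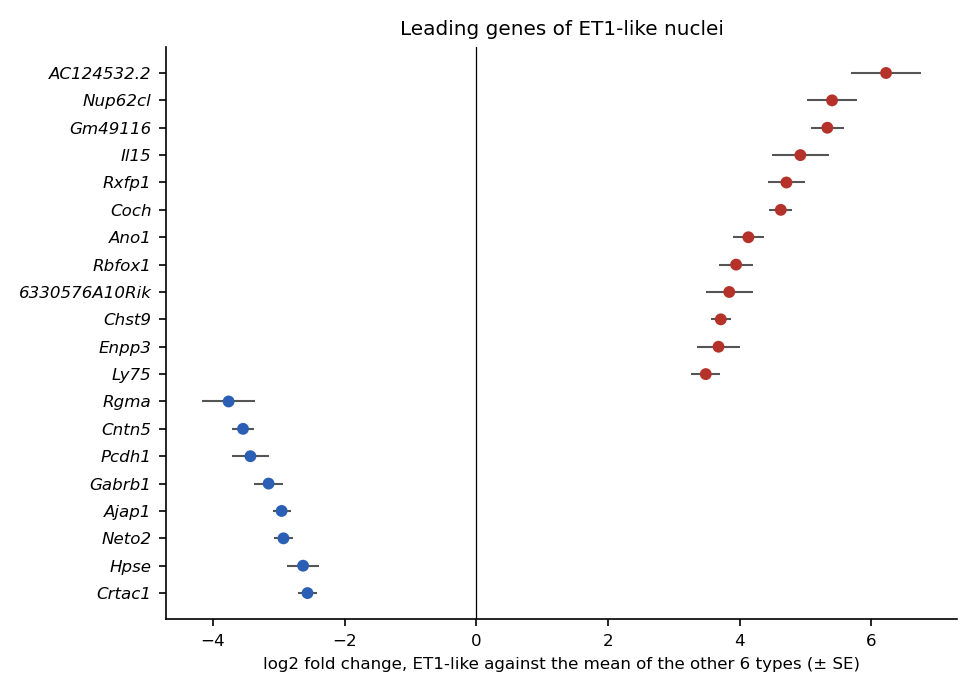
Log2 fold change of ET1-like nuclei against the mean of the other 6 types (horizontal axis, bars are SE) for the 12 genes leading on the higher and the 8 leading on the lower side among genes whose libraries do not overlap. The values run from 6.23 for AC124532.2 to −3.76 for Rgma, and the genes were selected for their size and separation.

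Ion channels that shape bursting were taken as a list of 34 tested genes, of which 5 were called higher and 4 lower (median log2 fold change 0.14, against a median near 0 over all genes), beside 5.17% and 3.44% of all genes. The HCN pacemaker channels open on hyperpolarisation and depolarise the cell again. Hcn4, a member of this family, was called higher at 24.2, 15.1 and 17.0 CPM (1.27 ± 0.22), and its libraries overlapped with those of other types, of which the M1-like library of 14 nuclei was highest at 18.6 CPM.

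Kcnn3, a small-conductance calcium-gated potassium channel that acts after bursts, stood at 189.8, 219 and 216 CPM, with all others at 165 CPM or less (1.86 ± 0.10). Scn1a, a sodium channel of the spike, stood at 502, 471 and 505 CPM, with all others at 396 CPM or less (1.23 ± 0.08). For both, the groups did not overlap. Kcnn3 was called against T1-like nuclei (1.73) but not against ET4-like nuclei (0.58), which had a mean of 157 CPM. Of 7 sodium channel genes, Scn1a among them, 0 were called higher than in T1-like nuclei. Trpc4, a nonselective cation channel, was the last member called higher (1.64 ± 0.23), and its libraries overlapped with those of other types. Nalcn, Kcnt2, Cacna1e and Cacna1h, which carry leak, sodium-gated potassium, R-type calcium and T-type calcium currents, were called lower, at −1.01, −1.59, −1.66 and −1.23. With the other types summed, Hcn4 (0.76), Scn1a (0.95), Trpc4 (0.82) and Nalcn (−0.95) were not called, and without mouse 2 Nalcn (−0.97), Kcnt2 (−1.40) and Cacna1h (−1.12) were not. Nalcn was not called without the M1-like libraries either (−0.95), and Cacna1h was at −2.85 with the other types summed.

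Among 32 voltage-gated potassium channel genes, 5 were called higher and 8 lower (median −0.25), against 5.17% and 3.44% of all genes. Kcns2, a silent subunit that joins Kv2 channels, stood at 43.1, 33.1 and 44.2 CPM with at most 16.9 CPM elsewhere (2.42 ± 0.19). Kv4 channels carry the fast A-type current, and 4 of 8 genes for these channels and their partners were called lower. Kcnip3 stood at 13.0, 13.8 and 15.1 CPM, below all other libraries, which started at 19.0 CPM (−2.26 ± 0.16), and Dpp6 at 399, 369 and 363 CPM, also below all others from 573 CPM upward (−1.14 ± 0.14). Dpp10 and Kcnip1 were called lower with overlap (−1.60 and −1.90). Kcnip4 went the other way, at 9494, 9945 and 6947 CPM (1.57 ± 0.18), but its highest level was in ET4-like nuclei. Kcnip4 was at 0.33 and not called with the other types summed, and Dpp6 at −0.99 without the M1-like libraries.

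Of 48 genes of glutamate and GABA receptors, 9 were called higher and 8 lower (median 0.12), against 5.17% and 3.44% of all genes. AMPA receptor subunits and their partners had 4 of 11 called higher and 0 lower, and GABA-A receptor subunits had 1 of 12 called higher and 5 lower (median −0.60). AMPA receptors carry fast excitation and GABA-A receptors fast inhibition. The difference between both families was not tested. Against ET4-like nuclei alone, 1 of the 11 AMPA genes was called higher and 5 lower (median −0.59), beside 7.4% and 5.93% of all genes.

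Gria1, an AMPA receptor subunit, stood at 1338, 1394 and 1158 CPM in ET1-like nuclei, at a mean of 94.5 CPM in T1-like nuclei and at 1114 CPM in ET4-like nuclei. ET1-like and T1-like libraries were well apart, at 3.73 on the log2 scale, while the difference from the 6 types was 2.28 ± 0.16. Gria4 stood at 5345, 6015 and 5987 CPM (2.24 ± 0.15). Shisa6, an AMPA receptor partner, was the most graded member, with a mean of 8.61 CPM in T1-like nuclei, 509.7, 702 and 252 CPM in the ET1-like libraries and 4381 CPM in ET4-like nuclei. Its ET1-like libraries differed from each other by more than those of Gria1, with mouse 3 lowest. Grin2a, an NMDA receptor subunit, had the same order, with 5.61 CPM in T1-like nuclei, 223, 238 and 172 CPM in ET1-like libraries and 517 CPM in ET4-like nuclei (2.57 ± 0.24 against the 6 types). With the other types summed, Grin2a was at 1.63 and Gria1 at 1.80. Gria4 (0.96) and Shisa9 (0.39, from 1.12) were then not called, and Shisa6 had the opposite sign (−0.20). Of the AMPA genes called higher, only Gria1 kept its call under that setting.

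Among the GABA-A subunits, Gabrb1 was below all other libraries as given above. Gabra2, Gabra4 and Gabrg3 were called lower too, at −1.57, −1.59 and −1.81. Gabra2 was at −3.53 with the other types summed, and it was not called without mouse 2 (−1.45), without mouse 3 (−1.42), without the M1-like libraries (−0.69) or without nuclei with 3 or more UMIs of Gad1, Gad2 and Slc32a1, markers of GABAergic neurons (−1.45). Gabbr2, a subunit of the metabotropic GABA-B receptor, was called higher at 55.2, 61.1 and 47.1 CPM (2.14 ± 0.15), against means of 2.85 CPM in T1-like and 125 CPM in ET4-like nuclei.

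Of 47 axon guidance and adhesion genes, 5 were called higher and 10 lower (median −0.33), against 5.17% and 3.44% of all genes. Sema5b, a transmembrane semaphorin, stood at 404, 389.9 and 388 CPM with at most 317 CPM elsewhere (2.89 ± 0.14). Plxna2, a plexin that receives semaphorin signals, stood at 408, 367 and 344 CPM with at most 309 CPM elsewhere (1.73 ± 0.14). For both genes every ET1-like library was above every other one, but T1-like nuclei were close. Sema5b had a mean of 308 CPM in T1-like nuclei, and the difference of 0.31 was not called. Plxna2 stood at 309, 279 and 268 CPM in the T1-like libraries. Of 13 tested semaphorins and their receptors, 0 were called higher than in T1-like nuclei. Cdh6, a cadherin that mediates cell contacts, was separated as well, at 724, 764 and 791 CPM with at most 487 CPM elsewhere (2.46 ± 0.11).

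Nrp2, a neuropilin that binds secreted semaphorins, was near 0 in ET1-like nuclei at 2.24, 2.63 and 1.94 CPM, and equally low in ET4-like nuclei (mean 1.80 CPM). It reached a mean of 608 CPM in M1-like nuclei, and the log2 fold change against the 6 types was −4.09 ± 0.40. Sema3e, a secreted semaphorin, stood at 10.3, 9.71 and 3.401 CPM (−3.16 ± 0.23). Sema5a, Sema6d and Sema3d were also called lower, so that 5 of 13 tested semaphorins and their receptors were lower and 2 higher. Dcc, the netrin receptor, stood at 76.3, 68.5 and 63.2 CPM (−2.21 ± 0.21), and Unc5c, Ntng1, Epha3 and Ephb1 were called lower at −1.28, −1.14, −1.39 and −1.36. Summing the other types gave Sema5b at 1.43, Ephb1 at −2.73 and Ntng1 at −1.93. Plxna2 was then not called (0.94), nor was Ntng1 without the M1-like libraries (−0.85).

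**Figure D3:**
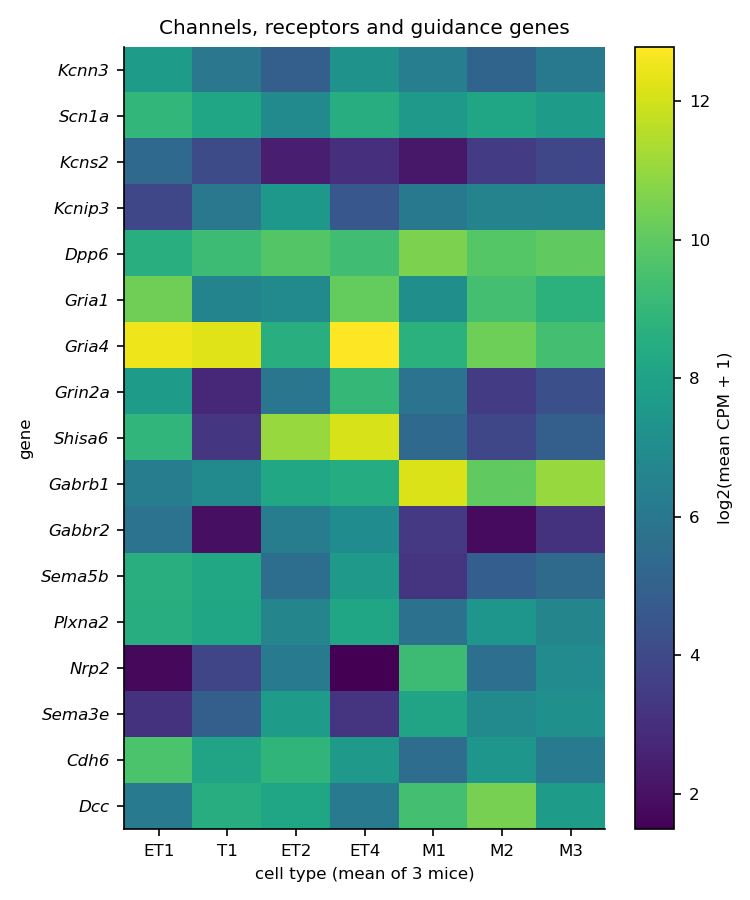
Mean level over 3 mice, as log2(CPM + 1) in colour, of channel, receptor and guidance genes (rows) in the 7 types (columns). Gria1 and Grin2a are high in ET1-like and ET4-like nuclei together. Gabrb1, Nrp2 and Dcc are low in the ET1-like column, but Gabrb1 is also low in the T1-like and Nrp2 in the ET4-like column.

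Wnt5b was the only Wnt ligand of 6 tested that was called higher. Of 37 tested Wnt pathway genes, 2 were called higher and 5 lower (median 0.08), against 5.17% and 3.44% of all genes. Among the ligands Wnt5b was higher, while Wnt7b, Wnt9a and Wnt10a were lower, with 4, 10 and 4 UMIs in all ET1-like nuclei. The secreted inhibitors Wif1 and Frzb were called lower at −2.25 and −1.07. None of 11 tested receptors was called, among them Ryk at 45.8, 46.1 and 53.9 CPM and Ror2 at 0.449, 1.48 and 6.32 CPM. Daam2, a formin of the Wnt route to the cytoskeleton, was called higher at 7.63, 4.44 and 9.72 CPM, with all others at 2.84 CPM or less (2.69 ± 0.38). Without mouse 2 the calls of Wnt9a (−0.76), Wif1 (−2.05) and Frzb (−0.61) were lost, as was that of Wnt10a, whose remaining ET1-like libraries were at 0 and give no measure of size. Without mouse 1 those of Wnt9a (−1.59), Wnt10a (−1.78) and Frzb (−1.42) were lost, and without mouse 3 those of Wnt10a (−2.45) and Frzb (−0.98). Wnt9a (−1.52) and Wnt10a (−2.25) were not called without the M1-like libraries either, nor were Wnt9a (−1.62) and Frzb (−0.96) without nuclei with 3 or more UMIs of Gad1, Gad2 and Slc32a1. A minimum of 1500 genes per nucleus ended the call of Frzb too (−0.82). Summing the other types gave Wnt9a at −2.90, and Frzb was not called (−1.09).

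Matrix genes beside Coch were read from a list of 22 carbohydrate sulfotransferases and matrix proteins, with 5 called higher and 1 lower, against 5.17% and 3.44% of all genes. Hapln1, which links hyaluronan to proteoglycans in perineuronal nets, stood at 119, 120.3 and 115 CPM with at most 85.3 CPM elsewhere (3.05 ± 0.12). It was not called against T1-like (0.98) or ET4-like nuclei (0.86) alone. Acan and Hapln4, which belong to the same nets, were called higher at 1.88 and 1.37, with overlap. Chst9 was the only sulfotransferase of 8 tested that was called. Matn2 was called lower, at −1.19. With the other types summed, Hapln1 was at 1.78, Acan (0.40) and Hapln4 (0.95) were not called, and Matn2 was not without mouse 2 (−1.04), mouse 3 (−1.32) or the M1-like libraries (−0.88).

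The cytokine and nuclear receptor lists that Clcf1 and Rorb belong to held few other calls, to be read against the 5.17% higher and 3.44% lower of all genes. Of 9 tested genes of the gp130 cytokine pathway, Clcf1 and Socs3 (2.30 ± 0.29), a feedback inhibitor, were called higher and 0 lower, and Cntfr, the receptor subunit that binds Clcf1, stood at 75.4, 62.4 and 80.2 CPM and was not called. Of 20 ROR, ERR and clock genes, Rorb, Ppargc1a and Bhlhe40 were called higher and 0 lower. Ppargc1a, a coactivator of mitochondrial genes, stood at 197, 194 and 181 CPM in ET1-like nuclei and at 357 CPM in ET4-like nuclei. Bhlhe40, a clock-linked repressor, stood at 84.4, 66.2 and 64.6 CPM with at most 46.8 CPM elsewhere (1.30 ± 0.11). Socs3 (0.0023) and Ppargc1a (0.95) were not called with the other types summed, and Ppargc1a was not without the M1-like libraries (0.83).

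Transcriptional regulators of T1, ET1 and ET4 cells were taken from the study, which had chosen them on these same nuclei, so that their count is not independent evidence. Of the 12 regulators, 4 were called higher in ET1-like nuclei and 0 lower, against 5.17% and 3.44% of all genes. Cux2, a homeodomain factor, stood at 835, 688 and 743 CPM with at most 675 CPM elsewhere (1.57 ± 0.09). Rcor1, a corepressor, stood at 214, 195 and 192 CPM with at most 145 CPM elsewhere (1.56 ± 0.09). Both thus lay above all other libraries, Cux2 narrowly, whereas Cux1 (1.65 ± 0.08) and Ppargc1a (1.10 ± 0.10) were called with overlap. Against T1-like nuclei alone, 1 of the 12 regulators was called higher. Cux1 was at 1.09 with the other types summed, and Cux2 was not called (0.92).

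Peptides, receptors and connexins gave small sets of calls, to be read against 5.17% of all genes called higher and 3.44% lower. Of 23 tested neuropeptide genes, 4 were called higher (Nppc 2.22, Cartpt 1.54, Gal 1.12 and Chgb 1.10) and 2 lower (Crh −2.43 and Nts −2.69). Of 31 neuromodulator and peptide receptors, Htr2a, Chrm2, Drd1 and Adra2c were called higher, at 1.65, 1.71, 1.70 and 1.78, and 3 lower. Chrna3, a nicotinic receptor subunit, was the lowest of these at −3.97, with 4 UMIs in all ET1-like nuclei. Gjd2, the main neuronal connexin, was called higher at 53.8, 33.4 and 38.4 CPM (1.39 ± 0.23), and none of the other 3 tested connexin and pannexin genes was called. With the other types summed, Cartpt (0.94), Chgb (0.60), Htr2a (0.56) and Gjd2 (0.91) were not called, and Gal had the opposite sign (−0.31). Calls were also lost without mouse 1 for Cartpt (1.64), Gal (0.88) and Nts (−2.23), without mouse 2 for Nts (−3.07) and Crh (−1.63), and without mouse 3 for Cartpt (1.33), Chgb (0.97) and Crh (−1.96), and without the M1-like libraries for Gal (0.85) and Chgb (0.96). Cartpt was at 2.76 without mouse 2 and Crh at −3.66 without mouse 1. Cartpt was not called without the nuclei with UMIs of inhibitory genes either (1.31). Without mouse 2, which held all 4 UMIs of Chrna3 in ET1-like nuclei, the fitted value of that gene was −7.56 and no measure of size.

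T1-like and ET4-like nuclei are the types that the study placed beside ET1 cells, and ET1-like nuclei were compared with each. Both comparisons use the same ET1-like libraries. Against T1-like nuclei, 562 genes (3.82%) were called higher and 571 (3.89%) lower. Against ET4-like nuclei, 1087 (7.4%) were called higher and 872 (5.93%) lower. The split against ET4-like nuclei depended on the scaling, since library size in place of TMM factors gave 887 higher and 1250 lower and moved the median of all genes by −0.18 on the log2 scale.

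Genes that mark T1 cells were mostly at an intermediate level in ET1-like nuclei. Olfr111, an olfactory receptor gene, stood at 919, 819 and 963 CPM in ET1-like nuclei, at a mean of 1477 CPM in T1-like and 25.5 CPM in ET4-like nuclei (3.83 ± 0.29 against the 6 types). Olfr110 stood at 108, 102.5 and 121 CPM, against 129 CPM in T1-like nuclei. Both genes are near copies of each other, so that the division of reads between them is uncertain. With the other types summed, Olfr111 was not called (0.53).

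Barhl2, a homeodomain factor, was an exception among the T1 genes, at 6.73, 4.77 and 6.80 CPM in ET1-like and 62.4 CPM in T1-like nuclei. The study had chosen the T1 and ET4 genes on these same nuclei, so that their counts are not independent evidence. Against T1-like nuclei 3.82% of all genes were called higher and 3.89% lower, and against ET4-like nuclei 7.4% and 5.93%. Of 8 tested T1 genes, 5 were called lower than in T1-like nuclei and 7 higher than in ET4-like nuclei. Of 7 ET4 genes, 6 were called higher than in T1-like nuclei and all 7 lower than in ET4-like nuclei. Ly6g6e, for instance, stood at 104, 56.3 and 28.7 CPM in ET1-like nuclei, between means of 5.28 CPM in T1-like and 659.6 CPM in ET4-like nuclei. Foxo1, a forkhead factor, stood at 52.5, 61.1 and 40.3 CPM, against 366 CPM in ET4-like nuclei. The 3 ET1-like libraries of Ly6g6e spread more than those of Olfr111, with mouse 1 highest.

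Family counts against T1-like nuclei stand beside 3.82% of all genes higher and 3.89% lower, and those against ET4-like nuclei beside 7.4% and 5.93%. A difference between both comparisons was not tested. Of 48 glutamate and GABA receptor genes, 8 were called higher and 8 lower than in T1-like nuclei, and 7 higher and 16 lower than in ET4-like nuclei. Cadherins had 7 of 13 called higher and 2 lower in each of the comparisons. Nonselective cation channels had 4 of 7 called higher than in T1-like nuclei and 4 lower than in ET4-like nuclei. Of 25 nuclear genes of oxidative metabolism, 0 were called against T1-like nuclei and 6 were lower than in ET4-like nuclei (median −0.80). Immediate early genes, which follow recent activity, had 0 of 13 called against T1-like nuclei and 3 lower than in ET4-like nuclei.

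The position of ET1-like nuclei was measured on genes chosen without them. In the 18 other libraries, 3641 genes were called between T1-like and ET4-like nuclei, 1836 of them higher in ET4-like and 1805 higher in T1-like nuclei. The position of a gene was set to 0 at the T1-like and 1 at the ET4-like level of the same mouse, on log2(CPM + 5). The median position of ET1-like nuclei was 0.347, 0.377 and 0.321 in mice 1, 2 and 3, or 0.348 ± 0.028 (SD, n = 3). The spread between mice was thus small against the distance to either end. Strictly between both ends lay 75.9%, 80.3% and 68.5% of genes, and 67.1%, 64.3% and 67.6% lay nearer to T1-like nuclei.

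Genes of both sides were not equally far along. ET4-side genes had a median position of 0.298, with 78.6% of them nearer to T1-like nuclei, and T1-side genes one of 0.420 with 58.7%. By this measure ET1-like nuclei were closer to T1-like nuclei in the genes that mark ET4-like nuclei than in those that mark T1-like nuclei. Among the regulators on this axis, Ppargc1a lay at 0.587 and Esrra at 0.502, while Hmgb3, Junb and Fos lay at 0.251, 0.233 and 0.172. Cux2 (−0.217) and Rcor1 (−0.560) lay outside the interval, beyond the T1-like level. These genes were higher in ET1-like nuclei than in both neighbours.

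Single nuclei were then placed on the same axis by the UMIs of ET4-side genes as a percent of the UMIs on both sides. The median was 31.6%, 35.3% and 27.8% in ET1-like nuclei of mice 1, 2 and 3, against 14.8%, 15.4% and 13.8% in T1-like and 76.6%, 74.0% and 72.4% in ET4-like nuclei. ET1-like nuclei were widely spread, with the middle 50% between 25.4% and 44.8% in mouse 1, 27.8% and 45.5% in mouse 2, and 22.7% and 36.0% in mouse 3. The 5th and 95th percentiles were 19.5% and 59.7% in mouse 1, 20.7% and 59.7% in mouse 2, and 17.5% and 49.98% in mouse 3.

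**Figure D4:**
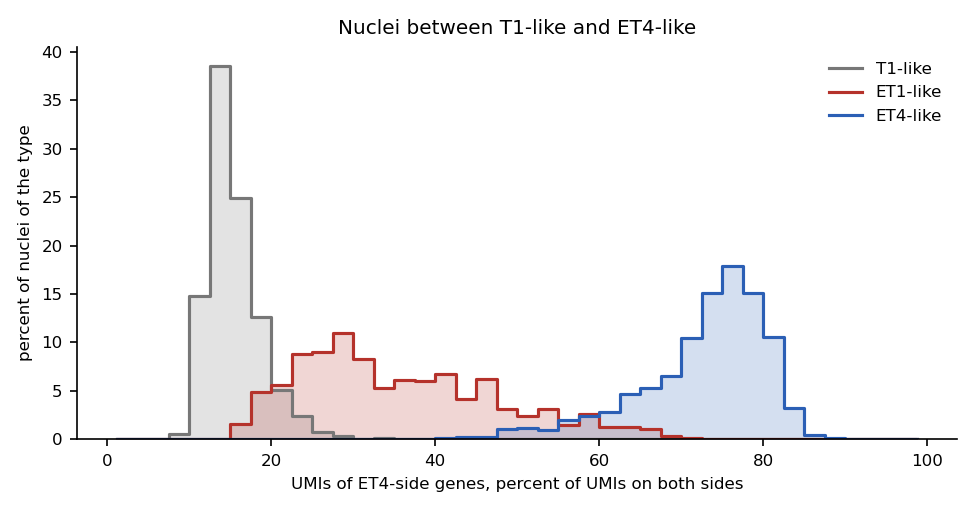
Distribution of single nuclei (vertical axis, percent of the nuclei of a type, 3 mice pooled) over the UMIs of ET4-side genes as a percent of UMIs on both sides (horizontal axis) for T1-like, ET1-like and ET4-like nuclei. T1-like nuclei gather near 15% and ET4-like nuclei near 75%, and ET1-like nuclei extend across the range between them with medians of 27.8% to 35.3%.

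The spread among ET1-like nuclei was seen in separate genes. The axis genes were divided into 2 sets, and the value of a nucleus in one set correlated with that in the other at r = 0.925, 0.9502 and 0.918 across the ET1-like nuclei of mice 1, 2 and 3. The points share each nucleus's depth and base composition, and the values are a description. Nuclei were ordered within each mouse by the first set and cut into tertiles, which are ranges of a score and not types. The second set then gave a median of 22.7% in the lower and 45.0% in the upper tertile of mouse 1, 24.1% and 46.3% in mouse 2, and 20.6% and 37.2% in mouse 3.

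The 10 genes read along this order were kept out of the ordering set, and the ones given here were chosen after their values were seen. Rxfp1 was at 438, 203 and 82.2 CPM in the lower, middle and upper tertile of mouse 1, at 261, 184 and 42.8 CPM in mouse 2, and at 199.8, 199 and 113 CPM in mouse 3. In each mouse the upper tertile was lowest for Rxfp1.

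Gria1 ran the other way, with 867 CPM in the lower and 1926 CPM in the upper tertile of mouse 1, 978 and 1964 CPM in mouse 2, and 798 and 1786 CPM in mouse 3. Olfr111 followed Rxfp1, with 1328 and 349 CPM, 1183 and 213 CPM, and 1186 and 504 CPM in the lower and upper tertiles of mice 1, 2 and 3. The other markers of the type had no order in common. Coch was at 155, 197 and 189 CPM along the tertiles of mouse 1, at 168, 199 and 217 CPM in mouse 2, and at 124, 196 and 220.3 CPM in mouse 3, so that its lower tertile was lowest in every mouse. Wnt5b was at 286, 169 and 148 CPM in mouse 1, 184, 173 and 133 CPM in mouse 2, and 181, 230.1 and 205 CPM in mouse 3, with no shared order over the mice. Rorb was at 349, 355 and 142 CPM in mouse 1, 261, 242 and 126 CPM in mouse 2, and 174, 282 and 262 CPM in mouse 3, so that its upper tertile was lowest in mice 1 and 2 only.

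Depth moved with this order. The median nucleus of the lower and upper tertile had 16838 and 12655 UMIs in mouse 1, 14738 and 10772 in mouse 2, and 20498.5 and 15649.5 in mouse 3. Nuclei with at least 3 UMIs of the inhibitory genes Gad1, Gad2 and Slc32a1 made up 20.4%, 16.3% and 10.2% of the tertiles in mouse 1, 20.4%, 29.7% and 21.8% in mouse 2, and 5.26%, 2.63% and 5.26% in mouse 3. The part of depth in the order was not tested, and the share of inhibitory UMIs had no order shared by the mice.

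**Figure D5:**
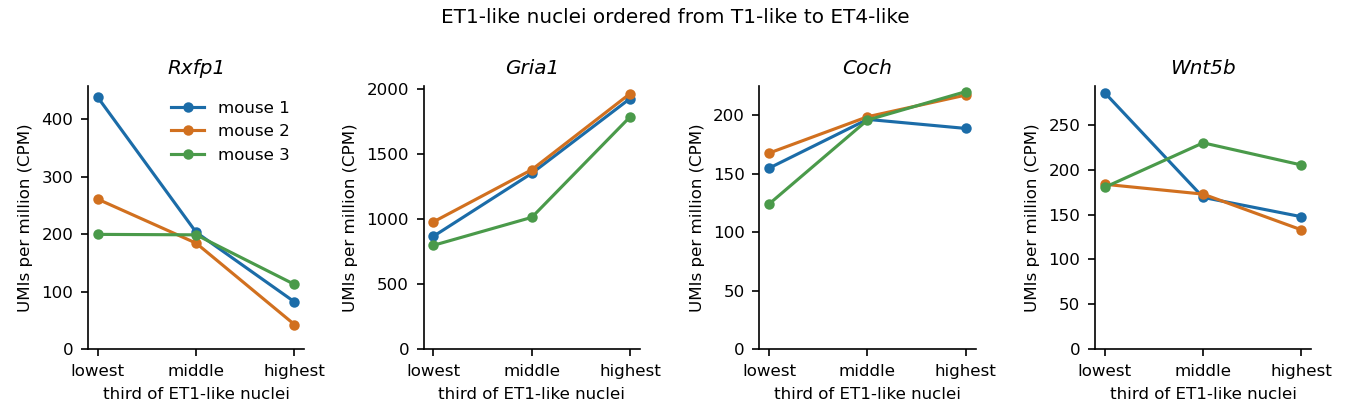
Level of Rxfp1, Gria1, Coch and Wnt5b in CPM (vertical axes) in ET1-like nuclei ordered from T1-like to ET4-like and cut into 3 equal parts (horizontal axes), with 1 line per mouse. Rxfp1 is lowest and Gria1 highest in the part nearest to ET4-like nuclei in all 3 mice, and Wnt5b has no shared order.

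Other cell types were checked through their markers. Slc17a7, a vesicular glutamate transporter, stood at 338, 231 and 289.6 CPM in ET1-like nuclei, and Eomes, a T-box factor of OB projection neurons, at 249, 212 and 185 CPM (1.21 ± 0.13 against the 6 types). Tbx21, a related factor of mitral and tufted cells, was low at 6.28, 3.95 and 1.46 CPM (−2.58 ± 0.37), and Tbr1 was among the other markers that were not called. Of 7 inhibitory markers, 0 were called, beside 5.17% of all genes called higher and 3.44% lower, so that the count alone says little. Their summed level was 76.8 to 340 CPM in ET1-like and 81.5 to 1099 CPM in the other libraries. ET1-like nuclei with at least 3 UMIs of the inhibitory genes made up 15.6%, 24.0% and 4.39% in mice 1, 2 and 3. Without them, the position between T1-like and ET4-like nuclei was 0.338 and the mean share with both Coch and Wnt5b 30.7%. Summed astrocyte markers were at 28.2 to 42.6 CPM against 6.19 to 74.4 CPM, where 6.19 CPM is 1 UMI in the M1-like library of 14 nuclei. Summed oligodendrocyte markers were at 78.7 to 100.5 CPM against 59.6 to 154 CPM. On each of these lists 0 of 5 were called, a count to be read beside the same shares of all genes.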

How the data were processed

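Nuclear RNA of the OB of 3 mice was counted per gene and barcode. The authors made the deposited UMI counts with Cell Ranger against mm10, without normalization, and deposited a table with the cluster, subcluster and percent of mitochondrial UMIs of each retained nucleus, the percent computed by the authors from mitochondrial genes. Nuclei were retained from 1000 genes upward and with mitochondrial UMIs of 5% or less, and UMI totals recomputed from the counts equalled the listed ones in 100% of nuclei. The authors' subclusters were taken as given, and no doublet caller was run. Nuclei with 3 or more UMIs of Gad1, Gad2 and Slc32a1 were left out as an alternative. Library depth is given in the report, and it limits the precision of genes with few UMIs.

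Counts were summed per mouse and type, filtered with filterByExpr, scaled by TMM and fitted with the quasi-likelihood test of edgeR 4.0.16 in R 4.3.3, and p-values were adjusted by Benjamini-Hochberg across the 14696 genes tested. The study instead tested single nuclei. DESeq2 1.42.0, library size scaling, other filters, the mouse as a block and leaving out each mouse were alternatives. The standard error is that of the fitted log2 fold change. CPM values use library sizes without TMM factors. Intervals of shares are exact (Clopper-Pearson) at 95% and cover counting error only. Leading genes were the 12 higher and 8 lower genes that differed most, by log2 fold change, of those called and separated from all 18 other libraries at 10 CPM or more in the higher group. Up to 4 called genes per role were named from the lists, and some listed genes are not reported here by name. The members and lists were chosen with earlier results of these data known.

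Each mouse gave a library of every type, which pairs the libraries by mouse. Deviations of libraries from their type's mean correlated with a mean r of 0.121 between ET1-like and other libraries of the same mouse (18 pairs) and −0.0599 between different mice (36 pairs). The block was kept as an alternative since the methods of the study hold none. Gene identifiers matched GENCODE M21 (GRCm38) for 31011 of 31055 genes, and 35 symbols found more than once were kept apart by identifier. The counting did not state how reads of overlapping genes were divided.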

Additional observations from a re-analysis of the deposited data

How the results depend on the processing

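The direction and call of the 24 leading and marker genes held under each alternative run (264 of 264 values). The leading genes were selected for call, separation and size in these same libraries, and the study chose the markers on the same nuclei. This result was therefore largely set by the selection. Of the 101 other listed genes that were called, 49 lost their call in at least 1 setting (115 of 1110 values). A further 6 values had the opposite sign, each with the other types summed into 1 library per mouse, namely Itga8 (−1.10), Tspan10 (−0.45), Galnt12 (−0.33), Gal (−0.31), Shisa6 (−0.20) and Ly6g6e (−0.19). Joint detection of Coch and Wnt5b, 30.7% on average, depended on depth and was 50.6% at 10000 UMIs per nucleus and 60.5% without thinning, and it ranged from 29.1% to 31.9% when each mouse was left out. Genes called higher numbered 351 in place of 760 when the other 6 types were summed into 1 library per mouse, a reference that weights types by their nuclei. Genes called lower then numbered 722 in place of 505. Leaving out each mouse gave 682 to 725 higher and 328 to 446 lower genes in place of 505, with 328 without mouse 2, the mouse with most nuclei. Apart from 351 and 328, the settings gave 670 to 878 higher and 379 to 722 lower genes. Calls ranged from 838 to 1316 against T1-like and from 1514 to 2137 against ET4-like nuclei. The share of ET1-like nuclei ranged from 8.31% to 10.5%, and the median position from 0.331 to 0.375. With the mouse as a replicate block, which accounts for the pairing, 756 genes were called higher and 546 lower, 1224 were called against T1-like in place of 1133 and 2037 against ET4-like in place of 1959 nuclei, and the position was 0.348, so that the block changed no count by over 1.5 times. The cause of the lower number without mouse 2 was not tested.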
